A study of Mus musculus with 65 samples.

Results

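The regions described here are the weakest meiotic break hotspots of wild-type mice that lie away from CTCF peaks, from the SYCP3 peaks of Iho1KO mice and from MEI4 peaks. They were chosen by their deposited DMC1 value in the wild-type list and by position, on 3 conditions: a place on chr1 to chr19, a DMC1 value of 55 or less, and no overlap, even of 1 bp, with the wild-type CTCF list, the Iho1KO SYCP3 list or any of the 5 MEI4 lists. There were 2690 such hotspots, which is 19.5% of the 13808 wild-type hotspots and 20.2% of the 13314 on chr1 to chr19. They make up 80.4% of the 3345 hotspots of 55 or less on those chromosomes. The 655 weak hotspots left out lay at a CTCF peak (342 hotspots), an Iho1KO SYCP3 peak (327) or a MEI4 peak (41), with 48 of them at both CTCF and SYCP3.

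In meiosis, SPO11 cuts the DNA in a programmed way, and it needs further proteins to do so, MEI4 and IHO1 among them. PRDM9, a DNA-binding histone methyltransferase, sets the places of most breaks in mice, and in mice without it breaks are known to form largely at promoters and other sites that carry active chromatin marks. DMC1 is a recombinase that loads onto the resected single strands of a break, so its chromatin immunoprecipitation maps breaks as hotspots. HORMAD1 and SYCP3 are proteins of the chromosome axis to which break-forming complexes are attached, and CTCF is an architectural protein that marks chromatin boundaries.

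The lists come from whole testes of C57BL/6JCrl mice enriched in leptotene and zygotene spermatocytes, the stages at which breaks form. Pups 1.5 days old were fed a retinoic acid inhibitor for 7 to 10 days, were then given 1 injection of retinoic acid to start meiosis together, and were sampled 8 days later, when the enrichment was 80 to 95%. The groups used here all had this treatment and differ in genotype: wild-type, B6;129P2-Prdm9tm1Ymat/J (Prdm9KO), Spo11tm1Mjn (Spo11KO), Mei4tm1Bdm (Mei4KO), Iho1tm1.2Atot (Iho1KO) and Hormad1tm1.2Atot (Hormad1KO). Each antibody and genotype has 1 deposited list of regions, 24 lists in all, and for SYCP3 the Iho1KO, Spo11KO and Prdm9KO groups are single samples. No list can therefore be set against a second list of its group, sequencing depth is unknown, and no p-value is given. Shares carry Wilson 95% intervals, and differences of shares carry Newcombe 95% intervals. Both cover counting error only and treat hotspots as independent, which hotspots of 1 list are not.

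For comparison, the hotspots of chr1 to chr19 that lie away from the same CTCF, SYCP3 and MEI4 peaks were divided by DMC1 value into a moderate class (2532 hotspots, values above 55 and up to 128.5), a strong class (1897 hotspots, 129 to 436.5) and a class of the strongest (324 hotspots, 437 to 7537). The moderate class is the main comparison. The weak hotspots at CTCF, at Iho1KO SYCP3 and at MEI4 are given beside it, and overlap with those lists is what sets them apart by construction.

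The letters below are promoter sequences from RefSeq (GRCm38.p6, the assembly of mm10), each the 250 bases before the start of a gene on the gene's own strand. They are shown because these promoters lie inside 4 weak hotspots that stand out by width or by the number of protein lists with a peak there. The share of hotspots at gene starts also differs between the weak and the moderate class. Capitals mark CG dinucleotides. Cfap298, a gene for cilium assembly, has its promoter at chr16:90934850-90935099, in a hotspot of value 25.5 that 7 protein lists share. The promoters of Syncrip, Qdpr and Galnt3, at chr9:88482398-88482647, chr5:45450230-45450479 and chr2:66124794-66125043, lie in the 3 widest hotspots of the set. All 4 genes are on the minus strand.
Cfap298: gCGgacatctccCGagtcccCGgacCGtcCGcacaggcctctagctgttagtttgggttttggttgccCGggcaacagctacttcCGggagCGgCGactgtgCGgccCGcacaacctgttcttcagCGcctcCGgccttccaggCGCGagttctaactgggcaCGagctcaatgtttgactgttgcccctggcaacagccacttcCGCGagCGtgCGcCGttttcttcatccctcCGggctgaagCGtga
Syncrip: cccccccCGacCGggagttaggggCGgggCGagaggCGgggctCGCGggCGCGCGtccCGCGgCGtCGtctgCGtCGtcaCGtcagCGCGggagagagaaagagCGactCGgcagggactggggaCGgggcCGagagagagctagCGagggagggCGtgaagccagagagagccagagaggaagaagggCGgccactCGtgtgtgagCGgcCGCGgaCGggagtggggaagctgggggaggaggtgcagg
Qdpr: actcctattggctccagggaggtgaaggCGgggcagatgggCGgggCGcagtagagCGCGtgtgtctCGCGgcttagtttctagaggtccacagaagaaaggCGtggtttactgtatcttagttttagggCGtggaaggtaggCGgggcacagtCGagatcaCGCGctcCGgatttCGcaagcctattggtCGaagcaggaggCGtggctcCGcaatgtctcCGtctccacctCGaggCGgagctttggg
Galnt3: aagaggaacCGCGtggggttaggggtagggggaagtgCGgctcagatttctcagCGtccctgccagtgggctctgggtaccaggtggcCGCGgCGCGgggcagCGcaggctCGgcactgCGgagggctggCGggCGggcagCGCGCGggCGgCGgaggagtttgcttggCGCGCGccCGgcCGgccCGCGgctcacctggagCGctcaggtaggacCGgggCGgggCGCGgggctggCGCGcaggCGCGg
These 4 promoters hold 23, 31, 21 and 34 CG dinucleotides in that order. Over all 20063 promoters of chr1 to chr19 in the table the median is 10 CG in 250 bases. Weak hotspots away from the 3 kinds of peak covered 274 promoters of 242 genes, with a median of 17 CG (quartiles 10 and 23), near the 16.5 of the 130 promoters in moderate hotspots and below the 23 of the 297 promoters in weak hotspots at Iho1KO SYCP3. The letters GGGCGG, on either strand, were present in 160 of the 274 promoters (58.4%, 52.5 to 64.1) and in 43.4% of all promoters. It was in 54.6% (46.0 to 62.9) of the promoters in moderate hotspots and in 63.2% (60.5 to 65.7) of those in any hotspot of chr1 to chr19, whose median was 20 CG. GGGCGG includes 1 CG, so the counts are not separate measures. CCAAT was found in 37.6% of the 274 and 35.3% of all promoters, and TATAAA in 7.66% and 11.7%, on either strand. Promoters in moderate hotspots had CCAAT in 45.4% and TATAAA in 7.69%. Those in any hotspot of chr1 to chr19 had 35.8% and 5.68%. In the printed promoters, GGGCGG is present on at least 1 strand in Syncrip, Qdpr and Galnt3, and CCAAT in Qdpr.

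The DMC1 values, which chose these hotspots, ran from 6 to 55, with quartiles of 28, 36 and 45. They are given as a description. The weak hotspots at CTCF and at Iho1KO SYCP3 had medians of 35 and 38. All 13808 wild-type values were multiples of 0.5, and the authors' unit is not stated. Just inside the threshold 26 hotspots had the value 55, the first of them by position at chr1:72367524-72369309 within Xrcc5, the gene of a subunit of the Ku end-joining complex. Just outside it 40 hotspots of chr1 to chr19 had the next value on that scale, of which 35 were away from the same peaks, such as chr1:6381835-6384645 within Alkal1. The lowest value, 6, belonged to chr1:104992516-104995483 at an end of Cdh20, a cadherin gene. That hotspot was 2968 bp wide and overlapped a HORMAD1 peak of Mei4KO. The next lowest, at chr14:113346305-113349008 (value 9) and chr16:79403411-79405263 (9.5), lay 1663160 and 312313 bp from the nearest protein-coding gene.

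Weak hotspots were about as wide at the median as moderate ones, but their widths were more spread. Their median width was 1870.5 bp, with quartiles of 1633 and 2164 bp and a range of 982 to 4510 bp. The moderate class had a median of 1880 bp (1694 and 2130), the strong class 1873 bp (1724 and 2053) and the strongest 1921.5 bp (1806 and 2037). Weak hotspots at CTCF were wider, with a median of 2085.5 bp, and those at Iho1KO SYCP3 wider still, at 2372 bp. Width comes from the same peak calls as the DMC1 value, so these are descriptions without a test. Across the 2690 hotspots, which share 1 list, the Spearman correlation of value and width was 0.111.

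Weak hotspots at gene ends were wider than the others. The 335 weak hotspots within 1 kb of an end of a protein-coding gene had a median width of 2108 bp (1810.5 and 2483.5), against 1836 bp (1622 and 2110.5) for the other 2355. The share at gene ends was 6.92% (4.61 to 10.3) of the 318 hotspots narrower than 1500 bp, 8.96% from 1500 to 2000 bp, 15.0% from 2000 to 2500 bp, and 30.3% (25.1 to 36.1) of the 264 of 2500 bp or more. The interval of the widest bin overlaps none of the other 3. A hotspot counted as at a gene end by its whole interval, a condition that a wider hotspot meets more easily. The part of this in the shares was not tested. Each of the 3 widest hotspots covered the end of a gene: chr9:88478833-88483342 (4510 bp, value 50.5) at Syncrip, which encodes an RNA-binding protein, chr5:45447137-45451319 (4183 bp, value 48) at Qdpr, which encodes dihydropteridine reductase, and chr2:66122155-66126123 (3969 bp, value 27.5) at Galnt3, which encodes a glycosyltransferase. Their promoters are among those printed above. The narrowest, chr19:37173983-37174964 (982 bp, value 23.5), was inside Cpeb3, a regulator of mRNA translation, and 938 bp from a hotspot of value 59.5.

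**Figure D1:**
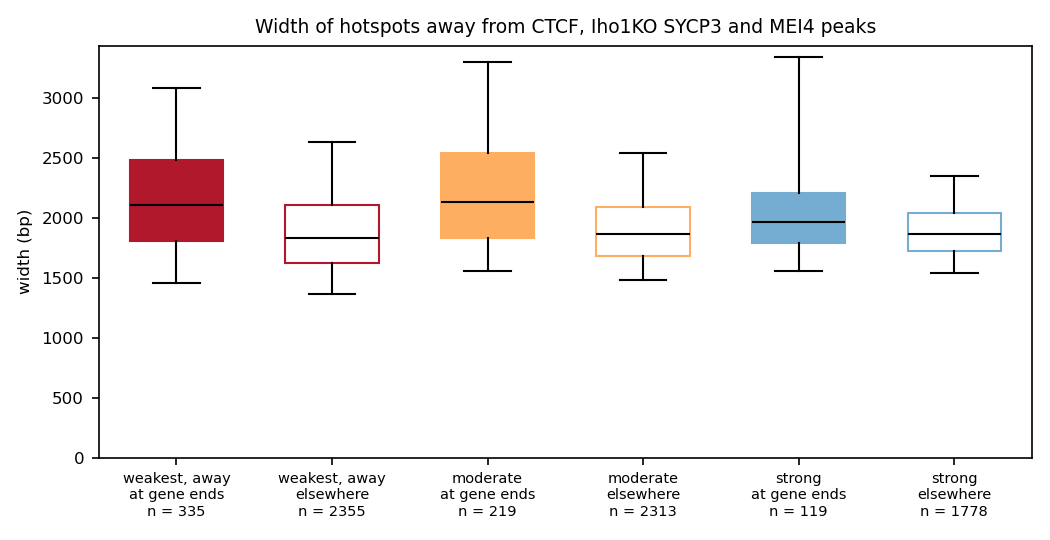
Box plots of hotspot width in bp (vertical axis from 0) for hotspots away from CTCF, Iho1KO SYCP3 and MEI4 peaks, split by DMC1 class and by position within 1 kb of a protein-coding gene end (filled) or elsewhere (open). Boxes span the quartiles, the line is the median and whiskers reach the 5th and 95th percentiles. The weak hotspots at gene ends have a median of 2108 bp and those elsewhere 1836 bp.

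No difference in spacing to stronger hotspots was found between weak and moderate hotspots. Of the 2690, 1026 (38.1%, 36.3 to 40.0) lay within 50 kb of another hotspot of value above 55, called a stronger hotspot here and measured between edges, where 39.9% of all hotspots of chr1 to chr19 did. In the moderate class the share was 37.6%, a difference of 0.50 percentage points (-2.13 to 3.13), whose interval included 0. At 2, 5, 10, 20, 100 and 200 kb the interval of the difference included 0 as well. The median distance to a stronger hotspot was 75471 bp (quartiles 29016 and 158486) for weak hotspots and 72968 bp for the moderate class. Within 50 kb of a hotspot of the strongest 25% the shares were 14.6% and 13.2%, a difference of 1.38 points (-0.50 to 3.25).

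Weak hotspots at CTCF or at Iho1KO SYCP3 more often had a stronger hotspot within 50 kb. Their shares within 50 kb were 45.9% and 46.8%, and the weak hotspots away from those peaks were lower by 7.77 points (interval of the difference -13.4 to -2.24) and by 8.65 points (-14.4 to -3.00). At 100 and 200 kb the intervals of both differences excluded 0 as well, but at 2, 5, 10 and 20 kb they included 0. The median distances were 57771 bp at CTCF and 54417 bp at Iho1KO SYCP3. The smallest gap belonged to chr10:39420774-39421967 (value 29.5) in Fyn, a gene for a Src family kinase, which was 335 bp from a hotspot of value 57. The next was chr9:95320805-95322142 (value 40), 451 bp from a hotspot of value 72, and then chr6:45666529-45667778 (47.5) in Cntnap2, a neuronal cell adhesion gene, 731 bp from a hotspot of value 129. No hotspot of the wild-type list overlapped another, so a weak region merged into a stronger one by the peak caller would not be seen.

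**Figure D2:**
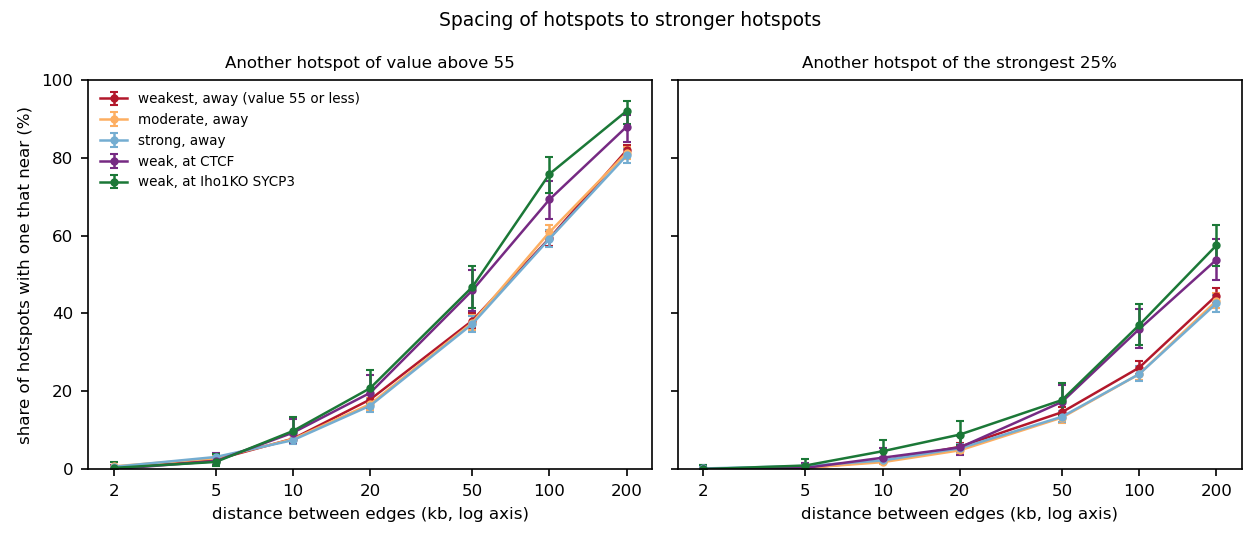
Share of hotspots, in %, that have another hotspot of value above 55 (left) or of the strongest 25% (right) within each distance in kb (log axis), with Wilson 95% intervals, for 5 classes. At 50 kb on the left the weak hotspots stand at 38.1% and the moderate class at 37.6%, below the weak hotspots at CTCF (45.9%) and at Iho1KO SYCP3 (46.8%).

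The hotspots were spread over the genome, making up 17.4% (chr1) to 23.3% (chr3) of the hotspots of a chromosome. Of the 2331 windows of 1 Mb that hold any hotspot of chr1 to chr19, 1531 hold at least 1 of them, and the fullest holds 8. Only 43 windows hold a weak hotspot and no stronger hotspot, with 58 of the 2690 in them.

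Weak hotspots lay at gene ends more often than moderate ones did, and about as often as all hotspots of chr1 to chr19. Of the 2690, 335 (12.5%, 11.3 to 13.8) were within 1 kb of either end of a protein-coding gene, where 13.3% of all hotspots of chr1 to chr19 were. The share was 8.65% in the moderate class, a difference of 3.80 points (2.14 to 5.47), and weak hotspots were higher on 17 of 19 chromosomes. It was 6.27% in the strong class and 4.63% in the strongest. Weak hotspots at CTCF and at Iho1KO SYCP3 were far higher, at 42.7% and 86.2%. The selection removes such hotspots from the weak class and, by the same lists, from the 3 other classes, so 12.5% describes what remains after that and not weak hotspots as a whole.

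A difference from the moderate class was also found at transcription start sites, which coincide in part with the gene ends. The share of weak hotspots there was near that of all hotspots. Whether gene ends that are not start sites differ was not tested. Start sites with a known strand were at hand for 17469 of 21900 protein-coding genes and for none on chromosome 18, which is left out here. Of the 317 weak hotspots at gene ends on the other chromosomes, 205 were at a start site. The 233 counted next also include start sites away from those ends. Of 2569 weak hotspots, 233 (9.07%, 8.02 to 10.2) were within 1 kb of a start site, against 9.17% of all hotspots of these chromosomes and 5.07% of the moderate class, a difference of 4.00 points (2.58 to 5.42) that was positive on 18 of 18 chromosomes. The strong class had 2.52% and the strongest 1.63%. By the position of their centres, 5.49% (4.67 to 6.44) of weak hotspots were 0 to 1 kb downstream of the nearest start site and 2.45% (1.92 to 3.13) were up to 1 kb upstream. In the moderate class the shares were 3.05% (2.44 to 3.82) and 1.16% (0.80 to 1.66). From 1 to 2 kb downstream they were 0.662% and 0.578%, with overlapping intervals.

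**Figure D3:**
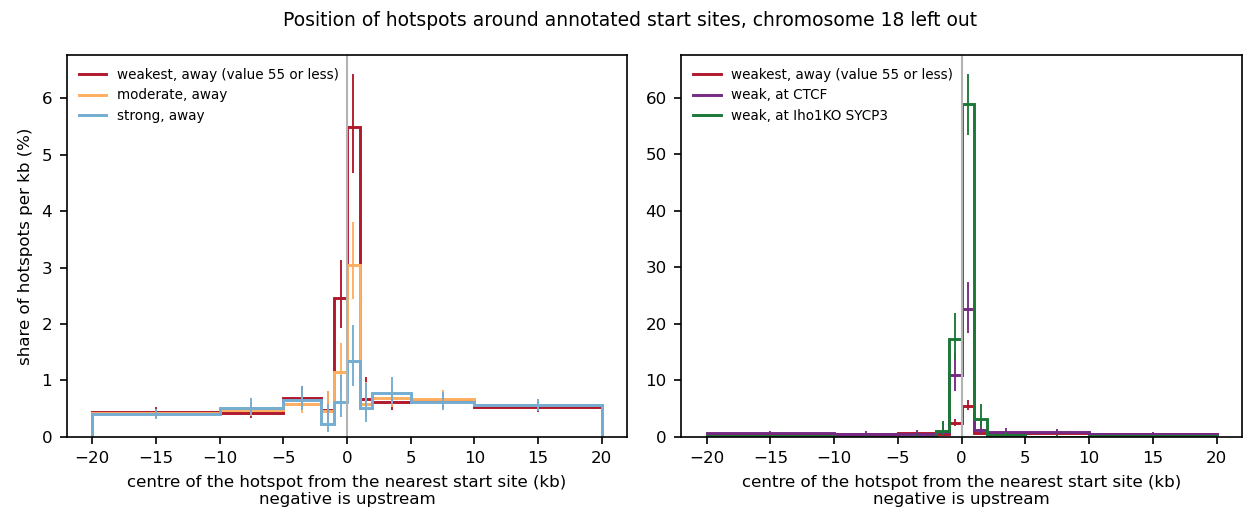
Share of hotspots per kb, in %, by the distance in kb from the hotspot's centre to the nearest annotated start site (negative is upstream), without chromosome 18, with Wilson 95% intervals; the 2 panels have different vertical scales. Left, the weak hotspots reach 5.49% in the first kb downstream against 3.05% for the moderate class. Right, the weak hotspots at CTCF and at Iho1KO SYCP3 stand above them in the same bins.

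No difference between the weak and the moderate class was found in the share inside genes. Of the weak hotspots, 1450 (53.9%) overlapped the span of a protein-coding gene, where 57.4% of all hotspots of chr1 to chr19 did, and 53.0% of the moderate class did. The difference was 0.90 points (-1.80 to 3.61), and the interval included 0. The share was 48.8% in the strong class, below the weak class by 5.14 points (2.21 to 8.07), and 67.8% of weak hotspots at CTCF and 96.3% of those at Iho1KO SYCP3. Exons, introns and untranslated regions were not analysed here, because the gene table gives spans only.

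Of 20665 protein-coding genes of chr1 to chr19, 1345 (6.51%) overlapped a weak hotspot and 5.76% a moderate one. The share went up with gene length, from 1.25% of genes shorter than 10 kb to 45.6% of genes of 300 kb or more, and moderate hotspots gave 0.558% and 45.4% in the same length bins. The genes with most weak hotspots were long ones: Lrmda held 6 and Lsamp, a neuronal adhesion gene, held 5. Next, with 4 each, came Auts2, Cacna2d3 (a calcium channel subunit), Csmd1, Lrp1b and 3 further genes. Among 60 long neural and adhesion genes with a median length of 1137 kb, 41 (68.3%) held a weak hotspot, 58.3% a moderate one, and 59 a wild-type hotspot of some kind. The 5 hotspots of Lsamp had values of 29 to 44.5, and the 4 of Csmd1 had 28.5, 29.5, 32 and 53.

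The share of genes with a weak hotspot is given for each list beside 6.51% of all protein-coding genes and beside the list's own share with a moderate hotspot. Of 48 genes for meiotic recombination and the chromosome axis, 2 held one (4.17%, and 6.25% a moderate one): Mcmdc2, a meiotic MCM-domain gene (chr1:9907922-9910143, value 51), and Syce1, a gene of the central element of the synaptonemal complex, whose start site lies 115 bp from the hotspot's centre (chr7:140786472-140789006, value 35). Of 44 DNA repair genes, 6 did (13.6%, moderate 9.09%), among them Xrcc4, a partner of DNA ligase IV in end joining, whose start site was 13 bp from the centre of a hotspot of value 48. Fanca, Gen1, Rad51b and Xrcc5 held theirs within the gene and not at an end. Of 30 germ cell genes, 5 did (16.7%, moderate 6.67%). At Sohlh2, a transcription factor of differentiating spermatogonia, the hotspot (value 24) was centred 431 bp downstream of the start site. Boll held 2 hotspots of values 27.5 and 26.5, Zbtb16 held 2 of 33.5 and 28.5, Mybl1 1 of 39 and Tcfl5 1 of 50, none of them at a gene end. Among the other lists, a weak hotspot lay in 6 of 1456 olfactory and vomeronasal receptor genes (0.412%, moderate 0.275%), in 4 of 91 ribosomal protein genes (4.40%, moderate 2.20%) and in 22 of 388 zinc finger genes (5.67%, moderate 2.58%). Gene lengths differ between these lists, from a median of 0.951 kb for the receptors to 52.4 kb for DNA repair. The part of length in the counts was not tested.

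Few weak hotspots carried a peak of a break or axis protein in the 15 lists that the selection did not use, which are 5 of IHO1, 5 of HORMAD1 and the 5 other SYCP3 lists. At least 1 of these lists had a peak at 79 of the 2690 (2.94%, against 23.2% of all hotspots of chr1 to chr19). The moderate class had 2.65%, and the difference of 0.29 points had an interval of -0.61 to 1.19. For IHO1 the count was 11 (0.409%, against 18.8% of all hotspots), for HORMAD1 53 (1.97%, against 9.17%) and for SYCP3 28 (1.04%, against 11.4%). None of the 3 differed from the moderate class beyond its interval. The difference was -0.07 points for IHO1 (-0.46 to 0.32), 0.23 for HORMAD1 (-0.51 to 0.98) and -0.06 for SYCP3 (-0.65 to 0.51). Since the selection removed every hotspot at a MEI4 peak, at an Iho1KO SYCP3 peak or at CTCF from both classes, sites shared with those proteins are absent from both by construction.

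The list most often found was HORMAD1 of Mei4KO, at 41 weak hotspots (1.52%, 2.04% of all hotspots), followed by SYCP3 of Spo11KO at 18 (0.669%, 5.95% of all). HORMAD1 of Iho1KO was at 14 (0.520%, 1.43% of all) and in the moderate class at 2 (0.0790%). This was the single list of 15 whose difference had an interval without 0, at 0.44 points (0.15 to 0.80), and the intervals are not adjusted for 15 lists. Of the 14, 8 were at gene ends. IHO1 of Prdm9KO was at 0 of 2690 hotspots, which allows a share of up to 0.112% (0.15% of all hotspots). IHO1 of Hormad1KO was at 1 (12.7% of all hotspots) and IHO1 of Spo11KO at 3 (14.6% of all). In the moderate class these 2 lists were at 2 and 9 hotspots, and the intervals of both differences included 0. All hotspots here include the sites that the selection removed.

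The other lists were at few weak hotspots too. In the wild type, IHO1 was at 6 (4.08% of all hotspots), HORMAD1 at 5 (4.66% of all) and SYCP3 at 5 (7.56% of all). HORMAD1 of Spo11KO was at 10 (5.3% of all) and of Prdm9KO at 3 (0.391% of all). IHO1 of Mei4KO was at 2 (0.293% of all). SYCP3 was at 7 in Prdm9KO (1.1% of all), at 7 in Mei4KO (1.11% of all) and at 2 in Hormad1KO (1.46% of all). None of these shares was above that among all hotspots, which include the sites that the selection removed. The moderate class was low as well. Of its 2532 hotspots, wild-type IHO1 was at 5, HORMAD1 at 6 and SYCP3 at 4. HORMAD1 was at 4 in Spo11KO and 3 in Prdm9KO, and IHO1 at 1 in Mei4KO. SYCP3 was at 14 in Prdm9KO, 5 in Mei4KO and 1 in Hormad1KO. For each of these lists the interval of the difference between the classes included 0.

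**Figure D4:**
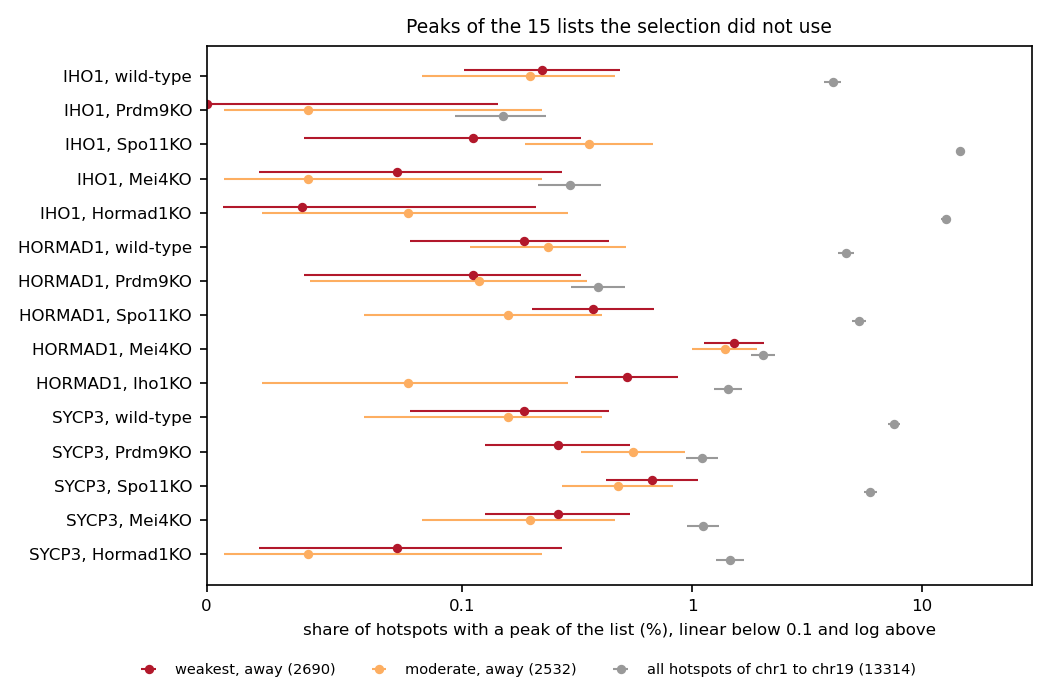
Share of hotspots, in %, with a peak of each of 15 lists (antibody, genotype), with Wilson 95% intervals, for the 2690 weak hotspots, the 2532 moderate hotspots and all 13314 hotspots of chr1 to chr19; the horizontal axis is linear below 0.1 and log above. For HORMAD1 of Iho1KO the weak and moderate points stand at 0.520% and 0.0790%.

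Within the weak class these peaks were concentrated at gene ends. Of the 335 hotspots at gene ends, 42 (12.5%) carried a peak of the 15 lists, and of the other 2355, 37 (1.57%) did, a difference of 10.97 points (7.78 to 15.0). For SYCP3 the shares were 6.57% (22 hotspots) and 0.255% (6), and for HORMAD1 6.57% (22) and 1.32% (31). In the moderate class the peaks were concentrated at gene ends as well. SYCP3 was at 28 of all its 2532 hotspots (1.11%) and at 9 of the 2313 away from gene ends (0.389%). HORMAD1 was at 44 (1.74%) and 27 (1.17%) of them. The rest of the 28 and of the 44 lay among the 219 moderate hotspots at gene ends. The concentration is therefore not particular to the weak class. Counted per weak hotspot, 2611 had no list, 57 had 1, 10 had 2, 7 had 3, 3 had 4 and 2 had 7. The 2 with 7 lists were at chr12:78839372-78841047 (value 42) at an end of Mpp5, a cell polarity gene, and at chr16:90933689-90936362 (value 25.5) at Cfap298 and Synj1, where the printed Cfap298 promoter lies. The peaks at Mpp5 were HORMAD1 of the wild type, Spo11KO, Mei4KO and Iho1KO and SYCP3 of Prdm9KO, Spo11KO and Mei4KO. The Cfap298 site had SYCP3 in the same 3 genotypes, HORMAD1 in the wild type and Iho1KO, and IHO1 in Spo11KO and Mei4KO. Away from gene ends, chr5:28449336-28452049 (value 31.5), 4790 bp from the morphogen gene Shh, carried 4 lists, IHO1 of the wild type and HORMAD1 of the wild type, Spo11KO and Iho1KO.

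Nearly all weak hotspots were missing from the DMC1 list of Hormad1KO. In mice without HORMAD1, breaks are known to be reduced. The Hormad1KO list holds 5002 hotspots with values from 3 up and a median of 72, and it overlapped 57 of the 2690 weak hotspots (2.12%, 1.64 to 2.74), against 34.2% of all wild-type hotspots of chr1 to chr19. The moderate class had 219 of 2532 (8.65%), so that weak hotspots were lower by 6.53 points (interval of the difference -7.78 to -5.33), on 18 of 19 chromosomes and equal on 1. The shares of the strong class and the strongest were 21.2% and 55.9%. Weak hotspots at CTCF (5 of 342, 1.46%) and at Iho1KO SYCP3 (2 of 327, 0.612%) were rarely found as well, and the intervals of both differences included 0 (-1.32 to 1.70 points and -0.15 to 2.27). The depth and the peak threshold of both DMC1 lists are unknown, and their part in these shares was not tested.

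Within the class the share found varied with value. It was 0 of 117 below 20, which allows a share of up to 2.56%, 6 of 705 (0.851%, 0.391 to 1.84) from 20 to 30, 11 of 807 (1.36%, 0.763 to 2.42) from 30 to 40, 33 of 729 (4.53%, 3.24 to 6.29) from 40 to 50 and 7 of 332 (2.11%, 1.03 to 4.29) from 50 to 55. The 40 to 50 bin lies above the intervals of the 20 to 30 and 30 to 40 bins without overlap, and its interval overlaps that of the top bin. Width gave no such change, with shares from 1.52% to 2.26% over the 4 width bins. At gene ends 4 of 335 were found and elsewhere 53 of 2355, a difference of -1.06 points (-2.05 to 0.85).

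The 57 matches were unambiguous in position. Each of the 57 Hormad1KO intervals overlapped no other wild-type hotspot, each pair shared at least 50% of its shorter interval, and the hotspots without a match were at least 1176 bp from any Hormad1KO hotspot. Their Hormad1KO values ran from 3 to 58 with a median of 23.5, where the matched moderate hotspots had a median of 28, the strong 29.5 and the strongest 44. DMC1 values of the 2 lists are not on a stated common scale, so no ratio is given. Among the highest Hormad1KO values were those of chr1:170645974-170647787 in Olfml2b (54 in Hormad1KO, 54.5 in the wild type) and chr11:58145167-58147643 in Gemin5, a gene of the SMN complex (42.5 and 48). In Ttbk2, a kinase gene for cilium formation, chr2:120738910-120740500 had 40.5 in Hormad1KO and 23 in the wild type. In Megf11, chr9:64563347-64565578 had 39.5 and 48.5. These 4 hotspots were inside genes, and none of them was at a gene end or carried a peak of the 15 lists.

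The 57 differed from the other 2633 weak hotspots in their surroundings. This comparison was chosen after its values were seen. The 57 also had higher wild-type DMC1 values, with a median of 44.5 against 36 for the others. The part of value in the differences below was not tested. Of the 57, 30 (52.6%) lay within 50 kb of a stronger hotspot, against 37.8% of the others, a difference of 14.8 points (1.95 to 27.3). Another hotspot of 55 or less lay within 100 kb of 7 of them (12.3%), against 28.8% of the others, a difference of -16.5 points (-23.0 to -5.41). The median distance to a stronger hotspot was 44796 bp for the 57 and 76448 bp for the others, and that to another weak one 481027 and 213688 bp. Protein-coding genes held 39 of the 57 (68.4%) and 53.6% of the others (14.8 points, 1.79 to 25.6). None of the 57 carried a peak of the 15 lists, against 79 of the others, a difference of -3.00 points with an interval of -3.72 to 3.34. The 57 lay on 17 of 19 chromosomes, with at most 7 on 1.

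Weak hotspots with a MEI4 peak, which the selection left out, were found in Hormad1KO far more often, at 16 of 41 (39.0%, 25.7 to 54.3). The difference from the weak hotspots away from MEI4, CTCF and Iho1KO SYCP3 was -36.9 points (-52.2 to -23.5). Their DMC1 values had a median of 39, against 36. One of the MEI4 lists is from Hormad1KO itself. Among the 22 weak hotspots at a MEI4 peak of the other 4 lists, 9 (40.9%, 23.3 to 61.3) were found, and among the 19 at the Hormad1KO MEI4 list alone, 7 (36.8%, 19.1 to 59.0) were. The Hormad1KO MEI4 list was at 30 weak hotspots in all, so part of the 22 carried its peaks too and are not free of that list. The number of such hotspots is small, and the intervals are wide.

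**Figure D5:**
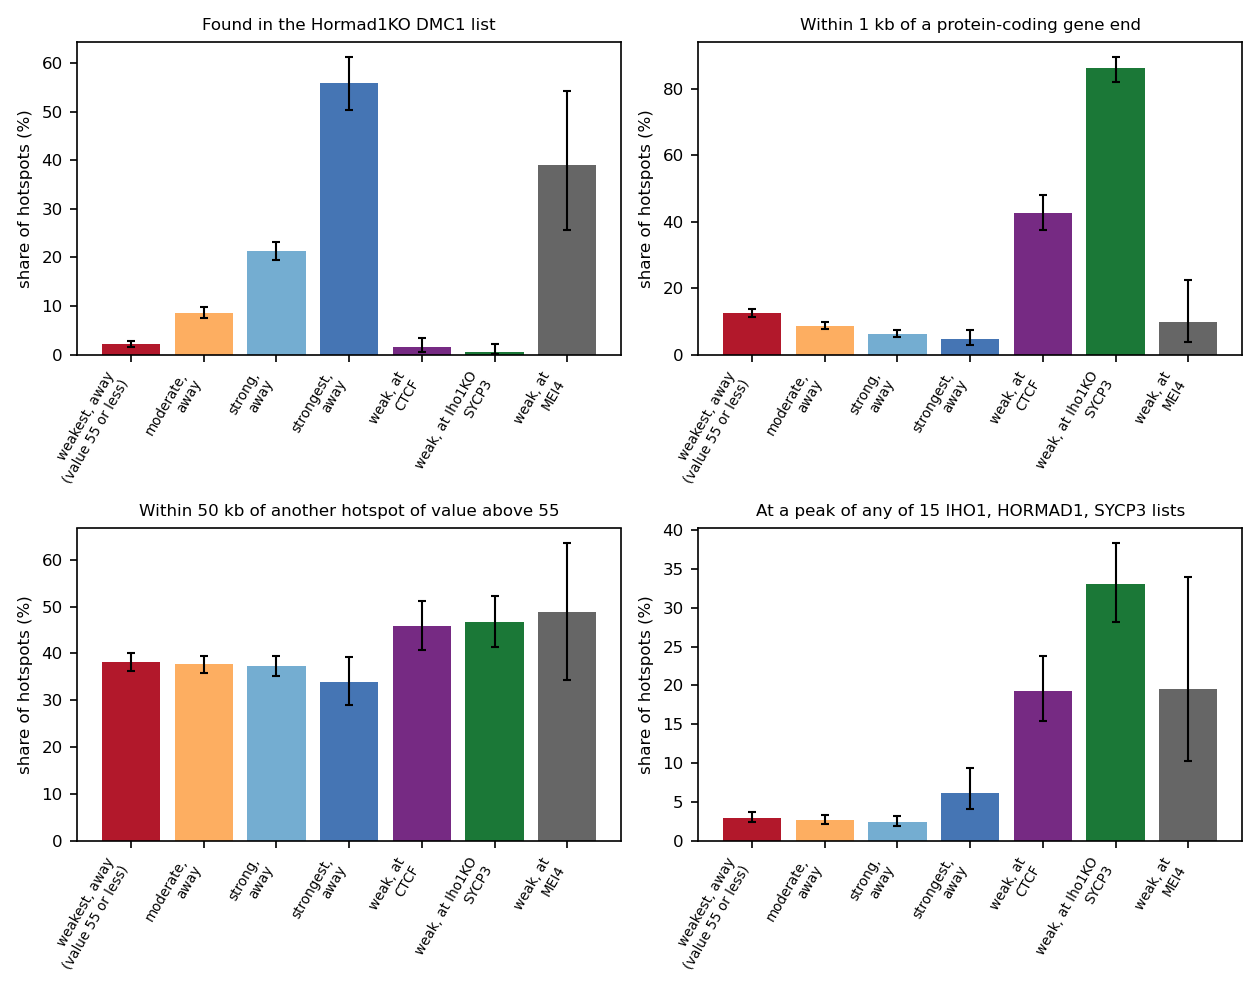
Share of hotspots, in %, with Wilson 95% intervals, for 4 features (panels with different vertical scales) in 7 classes on chr1 to chr19; "away" means without CTCF, Iho1KO SYCP3 or MEI4 peaks, and the 3 classes on the right are weak hotspots at those peaks. The weakest hotspots stand at 2.12% for the Hormad1KO DMC1 list, where the strongest reach 55.9% and the weak hotspots at MEI4 39.0%, and at 12.5% for gene ends, where weak hotspots at Iho1KO SYCP3 reach 86.2%.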

How the data were processed

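Lists of regions deposited by the authors were used, 1 for each of 24 groups (of 36 groups and 65 samples in the labels), each attached to replicate 1. The other groups were not used here. Reads were handled with Bowtie2 and MACS2 on mm10, per the submitters' processing notes, which give no role, version or threshold. Per the series' design text, signal of each protein's own knockout was subtracted. Whether replicates were pooled is not given in the sources used here. The DMC1 lists carry a deposited signal per hotspot and the CTCF list a deposited score per peak. Hotspots with a signal below 55.5 were selected, and since all values are multiples of 0.5 these are the hotspots of 55 or less. The signal was used only to choose and rank hotspots within its own list, the score was not used, and the other lists give positions only. Depth is unknown, so intervals come from counts of regions and limits for a count of 0 from 3 counts.

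Overlaps of at least 1 bp were counted in Python 3.11.15 with numpy 2.4.6, pandas 2.3.3 and scipy 1.17.1, and the overlap, distance and interval code was tested on simulated data. A difference was called where its Newcombe 95% interval excluded 0. Genes come from the RefSeq table of GRCm38.p6, which has no strand, so either end of a gene with 1 kb to each side stood in for start sites. Strand was taken from the RefSeq promoter table, matched by gene identifier for 79.8% of protein-coding genes. Coordinates are those of the files, counted from 1.

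The hotspots, the comparison classes and the gene lists were chosen with earlier results of these data known. Regions were named by rule: the 3 with the highest and lowest value, the 3 just outside the threshold, the 5 with the highest Hormad1KO value, the 5 with most lists, and the 3 nearest, farthest, widest and narrowest. Some of these are counted and not printed, and 1 withheld item is not reported here. Of listed genes, up to 5 a list were eligible. Regions on chromosome 18 are counted and not named.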

Additional observations from a re-analysis of the deposited data

How the results depend on the processing

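Each difference from the moderate class was recomputed with overlaps that cover 50% of the shorter interval, only the central 1 kb of a hotspot (for spacing, distances between centres), no excluding peak within 1 kb, the lower-valued 50% of the weak hotspots, chromosome X added, the strongest 25% of hotspots as the stronger ones, the next 1000 hotspots as the comparison, matches within 1 kb, and, for genes, no margin or all annotated genes. Hotspots away from gene ends, start sites in place of gene ends, and Hormad1KO hotspots at exactly 1 wild-type hotspot were added after the data were seen. The difference in the share found in Hormad1KO ran from -7.81 to -3.48 points over 9 alternatives, the smallest with the next 1000 hotspots, of which 5.60% were found. The central 1 kb, matches within 1 kb and Hormad1KO hotspots at exactly 1 wild-type hotspot left its counts unchanged. These alternatives therefore add no further check of that difference. The difference at gene ends ran from 2.85 to 4.27 points over 9. All of these intervals excluded 0. The differences in genes (-0.84 to 1.45 points), within 50 kb of a stronger hotspot (-1.09 to 1.38), at IHO1 (-0.18 to 0.11), HORMAD1 (0.08 to 0.47) and SYCP3 (-0.14 to 0.34) had intervals that included 0 under each of 8 alternatives, with either sign for all but HORMAD1. The median width was 1826 bp in the lower-valued 50%, and the cause was not tested. No paired analysis was possible because each group has 1 list, attached to replicate 1. For the same reason no replicate could be left out. Unknown depth limits every absence reported.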

Other observations

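The weak hotspots farthest from a stronger one were a pair on chromosome 1, chr1:102470522-102472451 (value 47) and chr1:102481996-102483705 (value 41), at 1493942 and 1482688 bp from the nearest hotspot of value above 55. The nearest protein-coding gene, Cntnap5b, was 1979922 and 1991396 bp away. The next farthest, chr14:101017127-101018556 (value 26), was 1319867 bp from a hotspot of value 9176. Neither the pair nor this hotspot was found in the Hormad1KO DMC1 list, and none carried a peak of the 15 lists. The wild-type list also holds 103 hotspots of 55 or less on chromosome X, which were left out by the selection.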
